A study of Mus musculus with 175 samples.

Results

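The nuclear genes of oxidative phosphorylation (OXPHOS) were examined, that is the genes for the nuclear subunits of the respiratory chain and of ATP synthase, together with the assembly factors that share their names. Members were the protein-coding genes whose symbol starts with Nduf and the letter a, b, c, s or v, with Sdh and the letter a, b, c or d, with Uqcr, with Cox and a digit from 4 to 8, or with Atp5. This rule used no measured value, and 97 of the 21973 protein-coding genes among 49585 mouse features met it. The 13 protein genes of the mitochondrial genome (mt- genes) served for comparison.

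The cells were single hematopoietic progenitors of the fetal liver at E14.5 (embryonic day 14.5), from C57BL/6 mice crossed with ICR that carried Runx1 P1-GFP::P2-hCD4/+, where human CD4 reports use of the P2 promoter of Runx1. Another field of the labels writes this genotype as Runx1 P2-GFP::P2-hCD4/+. Megakaryocyte-erythroid progenitors (MEPs) had been gated as Lin- SCA1- C-KIT+ CD16/32low CD34- CD41- CD150+ and common myeloid progenitors (CMPs) as CD34+, and each was sorted into cells without (P2-) and with (P2+) hCD4. The CMPs labelled low and high were read as P2- and P2+. Livers of 2 litters were pooled, so each of the 4 populations was 1 sample, its cells were not replicates, and no difference between populations could be tested.

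After filtering, 56 P2- and 47 P2+ MEPs and 27 P2- and 42 P2+ CMPs were kept of 175 cells, with 295064 to 1540631 reads on mouse genes per cell. Levels are pooled CPM, the reads of a gene summed over the cells of a population per 1000000 summed reads on mouse genes, and differences are log2 ratios of CPM. Where 4 levels stand in a row, the MEPs come before the CMPs and P2- before P2+. Where 4 ratios stand in a row, they are P2+ over P2- in MEPs, P2+ over P2- in CMPs, CMPs over MEPs of the P2- sorts and CMPs over MEPs of the P2+ sorts. Intervals at 95% for levels and ratios treat every read as an independent count. PCR copies carried no molecular identifiers and were counted as reads. The intervals also leave out the spread between cells and between pools, so they are too narrow. Of the markers of the labelled types, the erythroid factor Klf1 (478, 243.5, 87.4 and 4.59 CPM) and the erythropoietin receptor Epor (181, 84.1, 50.2 and 22.8 CPM) were highest in P2- MEPs, while the platelet gene Gp9 (0, 67.2, 37.5 and 39.6 CPM) and the myeloid gene Mpo (2.22, 12.7, 216.5 and 431 CPM) were higher in the other populations. The globin Hbb-bt had another order than the other erythroid markers (9.51, 9.79, 232.2 and 121 CPM). Marker lists of macrophages, hepatocytes, endothelium and lymphoid cells each summed to at most 24.7 CPM. One P2- CMP had a subtype label that named it a MEP.

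Oxidative phosphorylation passes electrons from NADH through complex I, or from succinate through complex II, to ubiquinone, then through complex III to cytochrome c and through complex IV to oxygen. Complexes I, III and IV pump protons across the inner mitochondrial membrane, and complex V, the ATP synthase, uses the gradient to make ATP. All of complex II and most subunits of the others are encoded in the nucleus, while the mitochondrial genome encodes core subunits of complexes I, III, IV and V. Erythroid progenitors also need mitochondria to make heme.

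Promoter windows (250 bases before to 50 after the start, from RefSeq, build GRCm38.p6) were matched for 78 of the 97 members. Those of 4 members are shown. Cox6b2 and its broadly expressed counterpart Cox6b1 were chosen because they differed in how far apart the populations stood. Ndufa4 and Sdhd were chosen because they stood near opposite ends of the comparison of P2- CMPs with P2- MEPs. All 4 lie on the minus strand, at chr7:4753045-4753344 (Cox6b2), chr7:30626065-30626364 (Cox6b1), chr6:11907401-11907700 (Ndufa4) and chr9:50603800-50604099 (Sdhd). Capitals mark matches on either strand to 5 motifs. The motif of NRF1, a regulator of nuclear genes for mitochondria, was searched as GCGCANGCG, where N is any base. Factors of the ETS family such as GABP were searched as CCGGAAG. For the regulator YY1 the letters were AAGATGGCG. For the erythroid and megakaryocytic GATA factors they were AGATAA. For the KLF family, to which Klf1 belongs, they were CCNCNCCC.
Cox6b2: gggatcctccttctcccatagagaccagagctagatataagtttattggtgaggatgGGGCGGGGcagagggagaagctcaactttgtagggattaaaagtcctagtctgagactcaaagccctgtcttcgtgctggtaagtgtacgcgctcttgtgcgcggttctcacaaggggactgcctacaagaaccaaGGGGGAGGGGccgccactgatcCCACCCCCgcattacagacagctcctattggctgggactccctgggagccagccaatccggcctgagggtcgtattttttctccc
Cox6b1: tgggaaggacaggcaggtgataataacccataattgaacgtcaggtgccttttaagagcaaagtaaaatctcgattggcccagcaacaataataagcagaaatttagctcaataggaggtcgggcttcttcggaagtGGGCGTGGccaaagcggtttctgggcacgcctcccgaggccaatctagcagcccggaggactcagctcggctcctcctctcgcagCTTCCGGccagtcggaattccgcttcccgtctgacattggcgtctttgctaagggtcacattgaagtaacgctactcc
Ndufa4: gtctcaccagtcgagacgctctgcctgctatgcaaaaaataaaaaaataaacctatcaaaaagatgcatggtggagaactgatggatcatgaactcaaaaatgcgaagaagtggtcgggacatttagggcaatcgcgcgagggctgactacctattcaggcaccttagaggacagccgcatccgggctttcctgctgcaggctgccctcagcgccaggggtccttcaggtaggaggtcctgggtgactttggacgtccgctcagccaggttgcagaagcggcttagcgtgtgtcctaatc
Sdhd: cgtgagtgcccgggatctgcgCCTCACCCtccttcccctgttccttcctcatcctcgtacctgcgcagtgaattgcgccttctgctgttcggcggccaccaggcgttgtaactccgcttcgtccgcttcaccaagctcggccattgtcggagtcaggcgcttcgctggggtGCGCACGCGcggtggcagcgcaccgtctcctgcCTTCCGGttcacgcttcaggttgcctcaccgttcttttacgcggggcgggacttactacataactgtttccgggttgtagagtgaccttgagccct
Sdhd held an NRF1 match at position -79 from the start and an ETS match at -46, and Cox6b1 held an ETS match at -28. Both also held 1 KLF match, and Cox6b2 held KLF matches only, at -193, -57, -55 and -35, of which the middle pair overlapped. Ndufa4 held no match, which says only that these letters are not in its window. Of the members with a window, 30.8% held the NRF1 letters in at least 1 window, against 10.1% of 16222 protein-coding genes. The shares were 26.9% against 13.3% for ETS, 10.3% against 2.24% for YY1, 7.69% against 11.1% for GATA and 56.4% against 60.1% for KLF letters. Members had 83 windows for 78 genes, and all genes 19796 windows for 16222. By window, the shares were 30.1% against 8.92% for NRF1, 25.3% against 11.8% for ETS and 9.64% against 1.91% for YY1. They were 7.23% against 9.51% for GATA and 57.8% against 57.9% for KLF letters. The genes were not matched for expression level or for the share of G and C. A match is a run of letters and not a site of binding.

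Reads were found for 94 of the 97 members, and the 3 without any were Cox6a2, Cox7b2 and Cox8b, isoforms of complex IV subunits known from specialised tissues. A mean of at least 20 CPM over the populations was reached by 87 members and by 6609 protein-coding genes in all, and these were compared. Mean levels of the 87 ran from 25.4 CPM (Ndufb2) to 1925 CPM (Atp5b, the catalytic beta subunit of ATP synthase), with a median of 248.2 CPM. Per kb of annotated exon, the highest mean levels were 1456 CPM per kb for Cox8a, 959 for Cox6b1 and 801 for Cox6a1, all small subunits of complex IV. Also among the 10 highest were Uqcr10 of complex III (668), Ndufa2 of complex I (568) and Atp5k of complex V (495). With every cell thinned to 100000 reads, 38 of the 87 members had a read in each of the 172 cells and 75 in at least 90% of cells. The like share over all genes compared was not taken, so these counts do not set the members apart from genes of similar level. Ndufaf5 was the one found in under 50% of cells.

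The members together took 3.005%, 2.72%, 2.61% and 2.74% of reads in the 4 populations. P2- MEPs gave them the largest share, and the other 3 populations lay close together. Over single cells, the lowest, median and highest shares were 2.54%, 2.997% and 3.85% for P2- and 1.90%, 2.71% and 3.23% for P2+ MEPs, and 1.58%, 2.61% and 3.63% for P2- and 1.87%, 2.74% and 3.44% for P2+ CMPs. The ranges of cells overlapped between all populations. Cells of P2- MEPs were the most alike (coefficient of variation 7.49%) and those of P2- CMPs the least (16.7%).

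**Figure D1:**
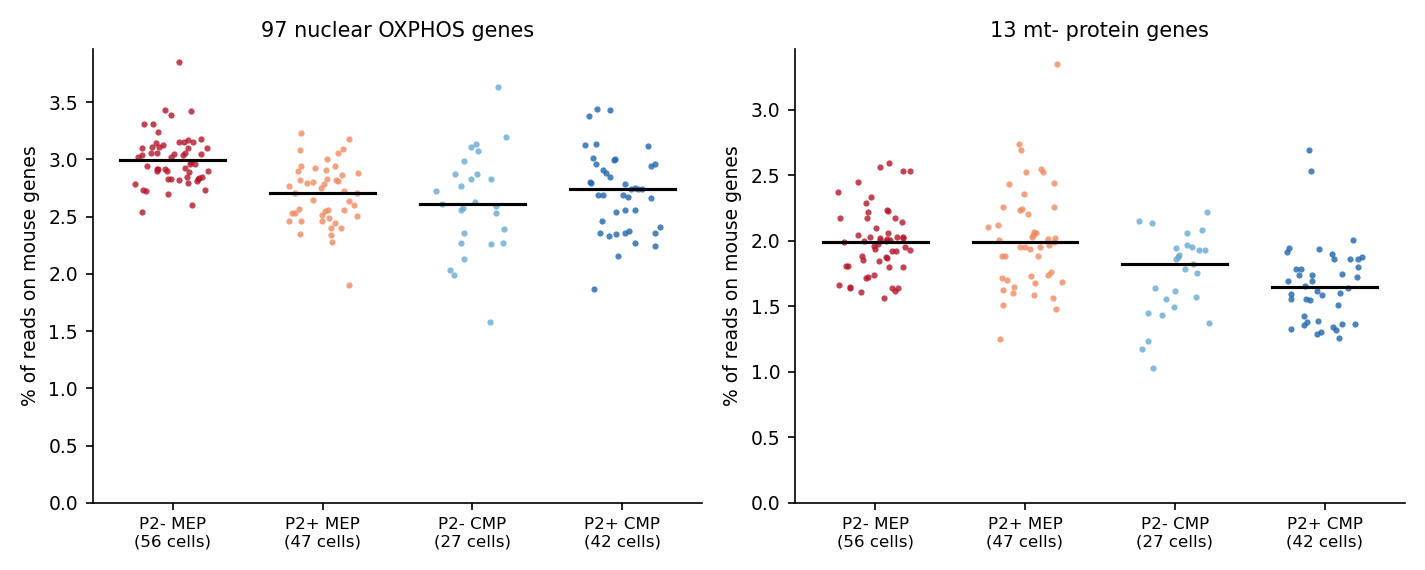
Percent of reads on mouse genes that fell on the 97 nuclear OXPHOS genes and on the 13 mt- protein genes, by population, with 1 point per cell and the median over cells marked. The nuclear median is highest in P2- MEPs, and the mt- median is lowest in P2+ CMPs at 1.65%. Almost all mt- reads fell on 7 of the 13 genes.

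In MEPs, the summed log2 ratio of P2+ over P2- was -0.14 (interval -0.15 to -0.14), and 71 of the 87 members were lower in P2+ MEPs. The median over the members was -0.13, beside 0.01 over all genes compared. Past 1.5-fold, 1 member was higher (Ndufaf5), where 15.1% of all genes were, and 4 were lower (Cox6b2, Ndufaf1, Ndufv1 and Sdhaf2), where 7.43% of all genes were. The difference was made of small ratios, most of them of 1 sign.

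In CMPs, the sign was the other way and the size smaller. The summed log2 ratio of P2+ over P2- was 0.07 (interval 0.06 to 0.07), with 55 members higher in P2+ CMPs and a median of 0.05 beside -0.04 over all genes. Of the 87, Uqcrc1 was the one member higher past 1.5-fold (background 7.82%), and Ndufaf3, Ndufaf6 and Ndufb2 were lower (background 11.5%). The log2 ratio of Uqcrc1, 0.59, lay at the threshold. It was 0.57 with equal weight for every cell and 0.57 without the P2- CMP of conflicting label. Without the cell of highest member share in each population it was also 0.57, and each of these is under 1.5-fold. With equal weight or without the cell of conflicting label, none of the 87 was higher past 1.5-fold (background 6.99% and 7.84%). With DESeq2 size factors, and without mitochondrial genes and Rn18s-rs5 in the denominator, 2 members were higher and 3 lower in each case (background 7.87% and 10.1%, and 8.43% and 10.9%).

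Between the P2- sorts, CMPs were below MEPs by a summed log2 ratio of -0.20 (interval -0.21 to -0.20), with 63 members lower and a median of -0.18 beside 0.00 over all genes. Ndufa4 and Ndufb2 were higher past 1.5-fold (background 22%). Lower past 1.5-fold were the 8 members Cox6b2, Ndufa10, Ndufa5, Ndufaf4, Ndufaf7, Ndufb9, Sdhd and Uqcr11 (background 14.9%). With DESeq2 size factors these counts were 1 higher and 11 lower (background 19.4% and 16.1%). Between the P2+ sorts, the total was nearly the same in CMPs and MEPs, with a summed log2 ratio of 0.01 that turned to -0.06 with DESeq2 size factors and to -0.000125 without the cell of highest member share in each population, and a median of -0.02. Atp5sl, Ndufa4 and Ndufa9 were higher past 1.5-fold (background 15.4%) and Cox6b2, Ndufaf4 and Ndufaf5 lower (background 16.5%). This even split depended on the scaling. It was 2 higher and 6 lower with DESeq2 size factors (background 12.8% and 19.2%), and 6 higher and 2 lower without mitochondrial genes and Rn18s-rs5 in the denominator (background 16.8% and 14.9%). These comparisons share populations with each other.

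**Figure D2:**
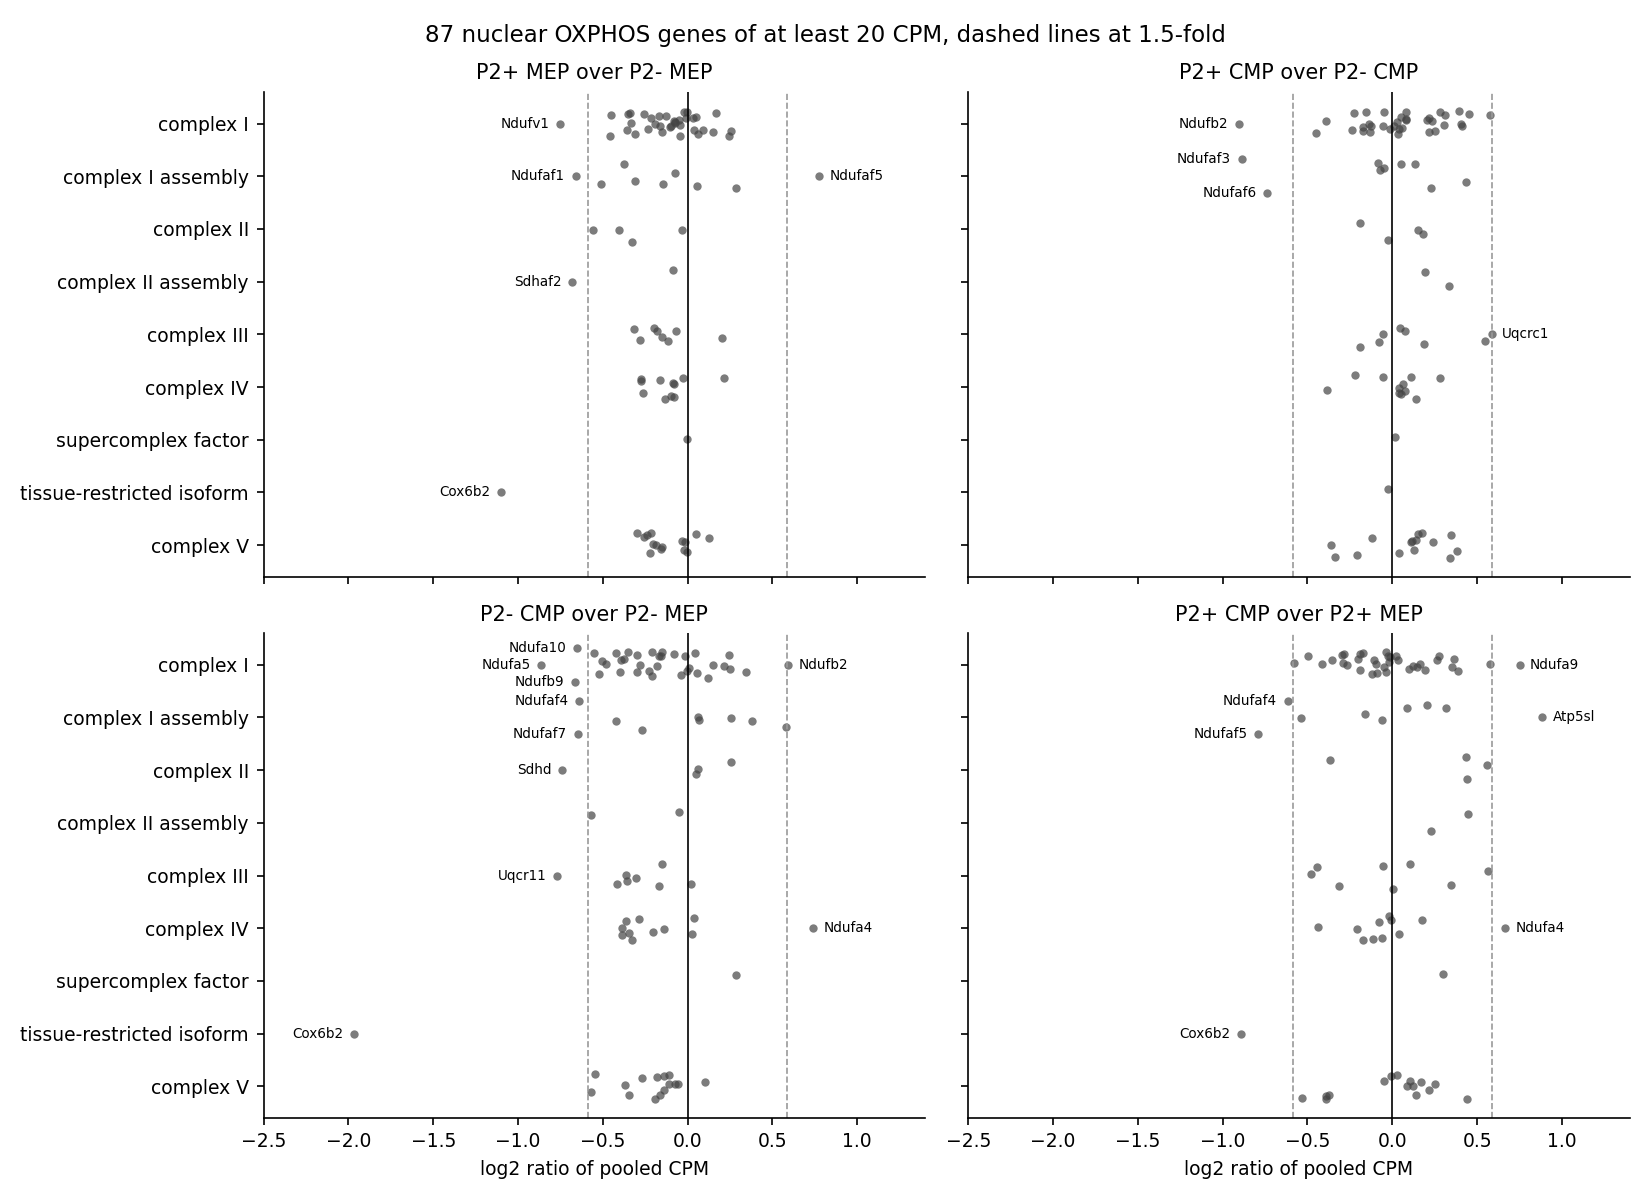
Log2 ratios of pooled CPM for the 87 members of at least 20 CPM in the 4 comparisons, with 1 point per gene, grouped by complex or role, and dashed lines at 1.5-fold. Most points lie inside the dashed lines, and Cox6b2 lies lowest, at -1.97, in P2- CMPs over P2- MEPs.

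Over the 4 populations, the highest and the lowest CPM differed by less than 1.5-fold for 63 of the 87 members (72.4%), beside 36.7% of all genes compared, a share that was not matched for expression level. Cox6b2 was the one member with a range past 2-fold (1.15% of the 87, beside 30.5% of all genes). Of the 87, 48 were highest in P2- MEPs (55.2%, beside 31.1% of all genes) and 25 in P2+ CMPs (28.7%, beside 24.6%).

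Mouse reads relative to the ERCC spike-in also differed. Mouse reads per ERCC read were 63.1, 41.1, 44.2 and 55.5 in the 4 populations. Scaled to ERCC reads, the median ratio over all genes compared moved to -0.61, 0.29, -0.51 and 0.37, and the median of the members less that of all genes was -0.14, 0.10, -0.18 and 0.04. With that scaling 1, 79, 3 and 77 of the 87 members had a ratio above 0, in place of 16, 55, 24 and 40. The ratios here are thus relative to the other RNA of a cell, and RNA content and capture cannot be told apart. Within a population, the nuclear share went with a lower ERCC percent (Spearman's rho over cells -0.37, -0.26, -0.53 and -0.51, n = 56, 47, 27 and 42 cells of 1 pool). Its part in the differences was not tested.

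Complex I, which oxidises NADH, had 36 nuclear subunits, all of them compared, with a summed level of 8168 (P2-) and 7514 (P2+) CPM in MEPs and 7099 (P2-) and 7393 (P2+) CPM in CMPs. In P2+ over P2- MEPs 27 were lower, and in P2- CMPs over P2- MEPs 26 were. Of the 6609 genes compared, 3258 and 3295 were lower in these comparisons. Ndufv1, which carries the flavin where NADH is oxidised, had the lowest ratio of the complex in MEPs. It stood at 195 [190.3 to 200.3] (P2-) and 116 [112 to 119.7] (P2+) CPM in MEPs and 167 [161 to 173] (P2-) and 152 [148 to 156] (P2+) CPM in CMPs, a log2 ratio of -0.75 (interval -0.81 to -0.69) in MEPs. Its lowest, median and highest single cells were 0, 180.3 and 419 CPM in P2- and 0, 99.9 and 389 CPM in P2+ MEPs, which overlapped. Ndufv2, its partner in the NADH-binding module, had a ratio of -0.34 there.

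The accessory subunit Ndufa5 had the lowest ratio of the complex between compartments. It stood at 303.3 (P2-) and 220.9 (P2+) CPM in MEPs and 167 (P2-) and 166 (P2+) CPM in CMPs, with a log2 ratio of -0.86 (interval -0.92 to -0.80) between the P2- sorts. The medians over cells, 306.8, 211.1, 173 and 157 CPM, had the same order as the pooled levels. The accessory subunits Ndufb9 (459.6, 409, 289.6 and 358.4 CPM) and Ndufb10 (351.5, 327.6, 239.7 and 219.5 CPM) were also highest in P2- MEPs. Ndufa9, an accessory subunit of the peripheral arm, was instead highest in P2+ CMPs, at 140.5 (P2-) and 111 (P2+) CPM in MEPs and 141 (P2-) and 188 (P2+) CPM in CMPs. Its log2 ratio between the P2+ sorts was 0.75 (interval 0.69 to 0.81). Ndufa10 was low in P2- CMPs only (283.9, 293.5, 181 and 269.8 CPM). The accessory subunits Ndufa11 (198, 185, 234.4 and 172 CPM) and Ndufa6 (246.1, 275.9, 255.8 and 195 CPM) were among the 5 lowest members in P2+ over P2- CMPs, at log2 ratios of -0.45 and -0.39. Ndufs4 (120.5, 126, 143 and 188 CPM) was among the 5 highest between the P2+ sorts, at 0.58, but at 0.34 with DESeq2 size factors and 0.40 with equal weight for every cell. Ndufv3 and Ndufb3 were among the 5 highest in MEPs, at 0.25 and 0.25, and Ndufv3 also between the P2- sorts, at 0.35. The core subunits Ndufs1, Ndufs3, Ndufs7 and Ndufs8 stayed within 1.5-fold in the 4 comparisons. Ndufb2 had the lowest counts (23.7, 23.3, 35.7 and 19.04 CPM), and its ratio between the P2- sorts was 0.59, but 0.57 with DESeq2 size factors, 0.58 without the cell of conflicting label and 0.48 without the cell of highest CPM in each population, all under 1.5-fold.

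The 4 subunits of complex II, succinate dehydrogenase, were not alike in their order. Summed, they stood at 1402 (P2-) and 1085 (P2+) CPM in MEPs and 1252 (P2-) and 1268 (P2+) CPM in CMPs. All 4 were lower in P2+ than in P2- MEPs, beside 3258 of the 6609 genes compared, with a summed log2 ratio of -0.37. Sdhd, a membrane anchor subunit encoded on chromosome 9, was highest in P2- MEPs, at 561 [553 to 569] (P2-) and 380.7 [373.95 to 388] (P2+) CPM in MEPs and 336.1 [327.8 to 344.6] (P2-) and 294.99 [289.4 to 300.6] (P2+) CPM in CMPs. Its log2 ratios were -0.74 (interval -0.78 to -0.70) between the P2- sorts and -0.56 (interval -0.59 to -0.53) between P2+ and P2- MEPs. Its lowest, median and highest single cells were 97.1, 521 and 1074 CPM in MEPs of the P2- sort and 13.2, 279.95 and 988 CPM in those of the P2+ sort, and 7.05, 335.9 and 655 CPM in CMPs of the P2- sort and 18.8, 264.3 and 607 CPM in those of the P2+ sort. P2- MEPs had the highest cells, and the ranges overlapped. The catalytic flavoprotein Sdha had another order and was highest in CMPs, at 273.5 (P2-) and 267.1 (P2+) CPM in MEPs and 325.9 (P2-) and 361.3 (P2+) CPM in CMPs. Sdhb, the iron-sulfur subunit (369.6, 279.5, 386 and 379.5 CPM), and Sdhc, the other anchor (198, 157, 204 and 231.8 CPM), were lowest in P2+ MEPs. Per kb of exon, Sdhd stood at 456 CPM per kb in P2- MEPs and 239.6 CPM per kb in P2+ CMPs, and Sdha at 66.3 and 87.6 CPM per kb.

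Complex III, the cytochrome bc1 complex, had 8 members with a summed level of 3473 (P2-) and 3141 (P2+) CPM in MEPs and 2758 (P2-) and 3004 (P2+) CPM in CMPs. Its summed log2 ratio between the P2- sorts, -0.33, was the lowest of the 5 complexes. There 7 of 8 members were lower in CMPs, beside 3295 of the 6609 genes compared. The small subunit Uqcr11 stood at 552 (P2-) and 455 (P2+) CPM in MEPs and 323.5 (P2-) and 334.1 (P2+) CPM in CMPs, a log2 ratio of -0.77 (interval -0.81 to -0.73) between the P2- sorts. The core proteins Uqcrc1 (536, 494, 418 and 628 CPM) and Uqcrc2 (187, 149.9, 152 and 221.7 CPM) were instead highest in P2+ CMPs. Their log2 ratios of P2+ over P2- CMPs were 0.59 (interval 0.55 to 0.62) and 0.55 (interval 0.49 to 0.61). The lowest, median and highest single cells of Uqcrc1 were 61.4, 389 and 898 CPM in P2- and 247.4, 620.0 and 1137 CPM in P2+ CMPs, which overlapped. The Rieske iron-sulfur protein Uqcrfs1 had a ratio of 0.07 there.

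Complex IV, cytochrome c oxidase, had 11 broadly expressed members with a summed level of 6518 (P2-) and 5926 (P2+) CPM in MEPs and 5795 (P2-) and 5888 (P2+) CPM in CMPs. Of these, 10 were lower in P2+ than in P2- MEPs, beside 3258 of the 6609 genes compared. The exception was Ndufa4, first described in complex I and now placed in complex IV. Of the 87 members compared, Ndufa4 was the one higher past 1.5-fold in both CMP sorts over their MEP counterparts. It stood at 491 [483 to 499] (P2-) and 569 [560.4 to 577] (P2+) CPM in MEPs and 820.4 [807 to 834] (P2-) and 902 [893 to 912] (P2+) CPM in CMPs. The log2 ratios of CMPs over MEPs were 0.74 (interval 0.71 to 0.77) for the P2- and 0.67 (interval 0.64 to 0.69) for the P2+ sorts, the latter 0.57 and under 1.5-fold with DESeq2 size factors. Its lowest, median and highest single cells were 242.7, 469 and 1004 CPM in MEPs of the P2- sort and 112, 575 and 977 CPM in those of the P2+ sort, and 206, 758 and 1651 CPM in CMPs of the P2- sort and 405, 887 and 1561 CPM in those of the P2+ sort. The cells overlapped, and the medians had the order of the pooled levels. Others were lower in CMPs, such as Cox8a (1045, 933, 798 and 829 CPM). The regulatory subunit Cox4i1 (991, 818, 779 and 815 CPM) was lower in CMPs between the P2- sorts and nearly equal between the P2+ sorts. Ndufa4l2, the paralog of Ndufa4 known from hypoxia, had at most 10 reads in a population.

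**Figure D3:**
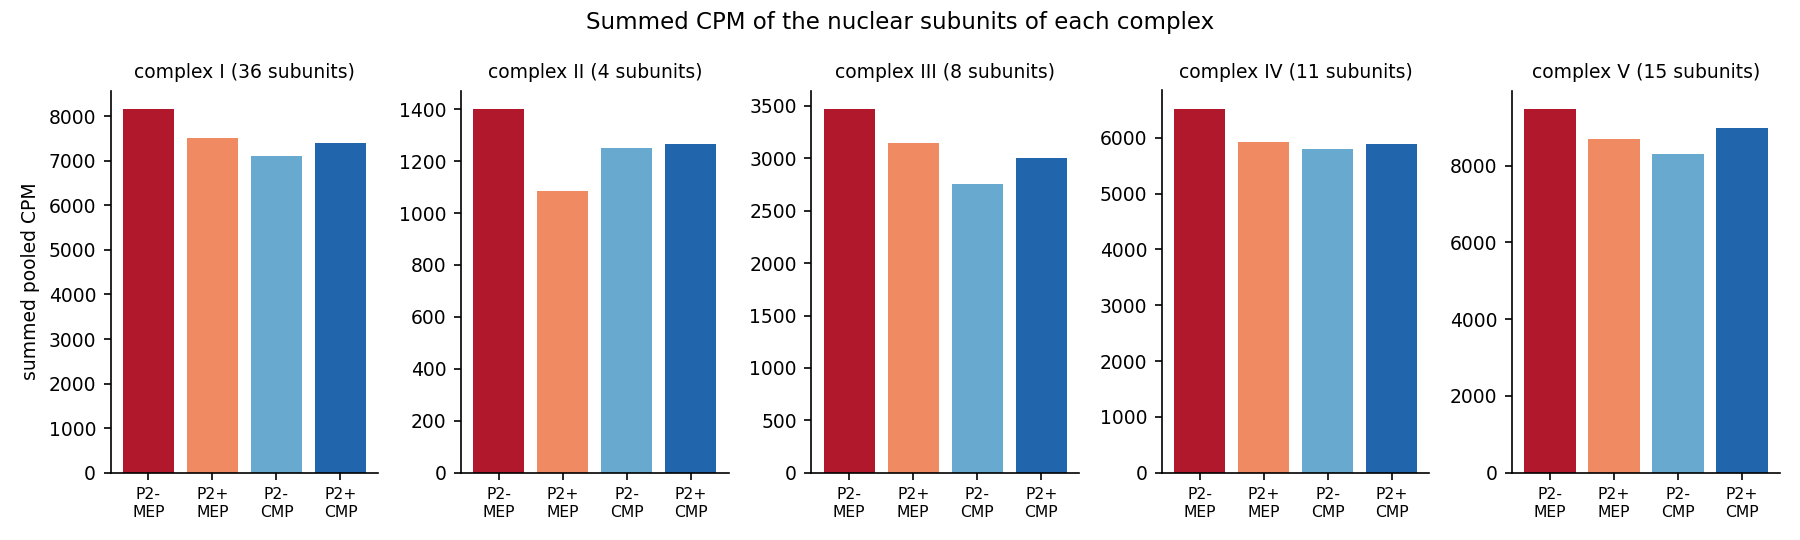
Summed pooled CPM of the nuclear subunits of complexes I to V in each population, without replicates, on axes that start at 0. P2- MEPs are highest for every complex, and complex II is lowest in P2+ MEPs at 1085 CPM.

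Complex V had 15 members with a summed level of 9479.8 (P2-) and 8682 (P2+) CPM in MEPs and 8298 (P2-) and 8967 (P2+) CPM in CMPs, and none was past 1.5-fold in any of the 4 comparisons, beside 22.6%, 19.4%, 36.9% and 31.9% of all genes past it in either direction. Between P2+ and P2- CMPs 11 of the 15 were higher in P2+ cells, beside 3059 of the 6609 genes compared. Atp5b (2005, 1808, 1857 and 2032 CPM) and Atp5a1 (1203, 1177, 1059.8 and 1250.0 CPM), which form the catalytic head, had the highest CPM, not set per length. Per kb of exon, Atp5k was the highest of the complex, at 495 CPM per kb. The 3 genes for subunit c, which code for the same mature protein, were not alike in their order. Atp5g1 (826, 671, 557 and 512 CPM) and Atp5g3 (683, 588, 566 and 448 CPM) were highest in P2- MEPs and lowest in P2+ CMPs. Atp5g2 stood at 111, 115, 106 and 138 CPM, and 36.3% of its 70-base words also occur in other annotated transcripts, so its counts are uncertain.

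The largest ratios were those of isoform genes. Cox4i2, the form of subunit 4 described in lung and under hypoxia, had reads in CMPs and in no MEP. It had 631 reads in P2- and 963 reads in P2+ CMPs, that is 34.4 CPM (interval 31.8 to 37.2) and 26.5 CPM (interval 24.8 to 28.2). Against floors of 3 reads over the MEP populations (0.0980 and 0.0950 CPM), its log2 ratio of CMPs over MEPs was at least 8.46 for the P2- and at least 8.12 for the P2+ sorts. Without the cell of highest CPM in each population these bounds were 7.90 and 7.78. After thinning, a read was found in 0 of 56 P2- and 0 of 47 P2+ MEPs, for which exact Clopper-Pearson intervals allow up to 6.38% and 7.55%. Such intervals count the cells of 1 pool as independent, leave out any spread between pools, and limit the share of cells with a read at this depth, not of cells that express the gene. Among CMPs it was 10 of 27 P2- cells (37.04%, interval 19.4% to 57.6%) and 21 of 42 P2+ cells (50%, interval 34.2% to 65.8%). Single cells reached 193 and 194 CPM. Cox4i2 was thus read in a part of the CMPs, and its mean over populations lay under 20 CPM, so it was not among the 87. Per kb of exon it made up 7.997% of the Cox4i1 and Cox4i2 total in P2- and 6.01% in P2+ CMPs. Markers of multipotent cells (8.66, 107, 509 and 848 CPM summed over 5 genes, Cd34 of the sort gate among them) and of mast cells and basophils (0.327, 2.69, 72.8 and 34.2 CPM over 3 genes) were also highest in CMPs. Their part in this result was not tested.

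Cox6b2, the form of subunit 6B known from testis, was higher in MEPs than in CMPs. It stood at 105 [101 to 109] (P2-) and 48.9 [46.5 to 51.4] (P2+) CPM in MEPs and 26.8 [24.5 to 29.3] (P2-) and 26.3 [24.7 to 28.05] (P2+) CPM in CMPs. Its log2 ratios were -1.10 (interval -1.19 to -1.01) for P2+ over P2- MEPs, -1.97 (interval -2.11 to -1.83) between the P2- sorts and -0.89 (interval -1.01 to -0.78) between the P2+ sorts. Thinned cells with a read were 51 of 56 P2- and 29 of 47 P2+ MEPs, and 15 of 27 P2- and 22 of 42 P2+ CMPs. The lowest, median and highest single cells were 0, 84.1 and 256.1 CPM in MEPs of the P2- sort and 0, 35.1 and 181 CPM in those of the P2+ sort, and 0, 20.9 and 234.5 CPM in CMPs of the P2- sort and 0, 18.2 and 83.8 CPM in those of the P2+ sort. P2- MEPs were highest, although the ranges overlapped. One P2- CMP held 177 of the 492 reads of its population, and without the cell of highest CPM in each population the ratio of P2+ over P2- CMPs was 0.49 in place of -0.03. Cox6b1 (787, 655, 628 and 647 CPM) varied less, and per kb of exon Cox6b2 made up 7.86%, 4.56%, 2.66% and 2.54% of the pair. Of thinned cells with a Cox6b2 read, 51 of 51, 26 of 29, 7 of 15 and 1 of 22 in the 4 populations also had a read of Klf1, and of those without one 5 of 5, 13 of 18, 7 of 12 and 1 of 20. The erythroid markers, summed over 9 genes, were also highest in P2- MEPs (2169, 1115, 858 and 468 CPM). Between P2+ and P2- CMPs their summed log2 ratio was -0.87, unlike that of Cox6b2, and their part in this result was not tested.

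**Figure D4:**
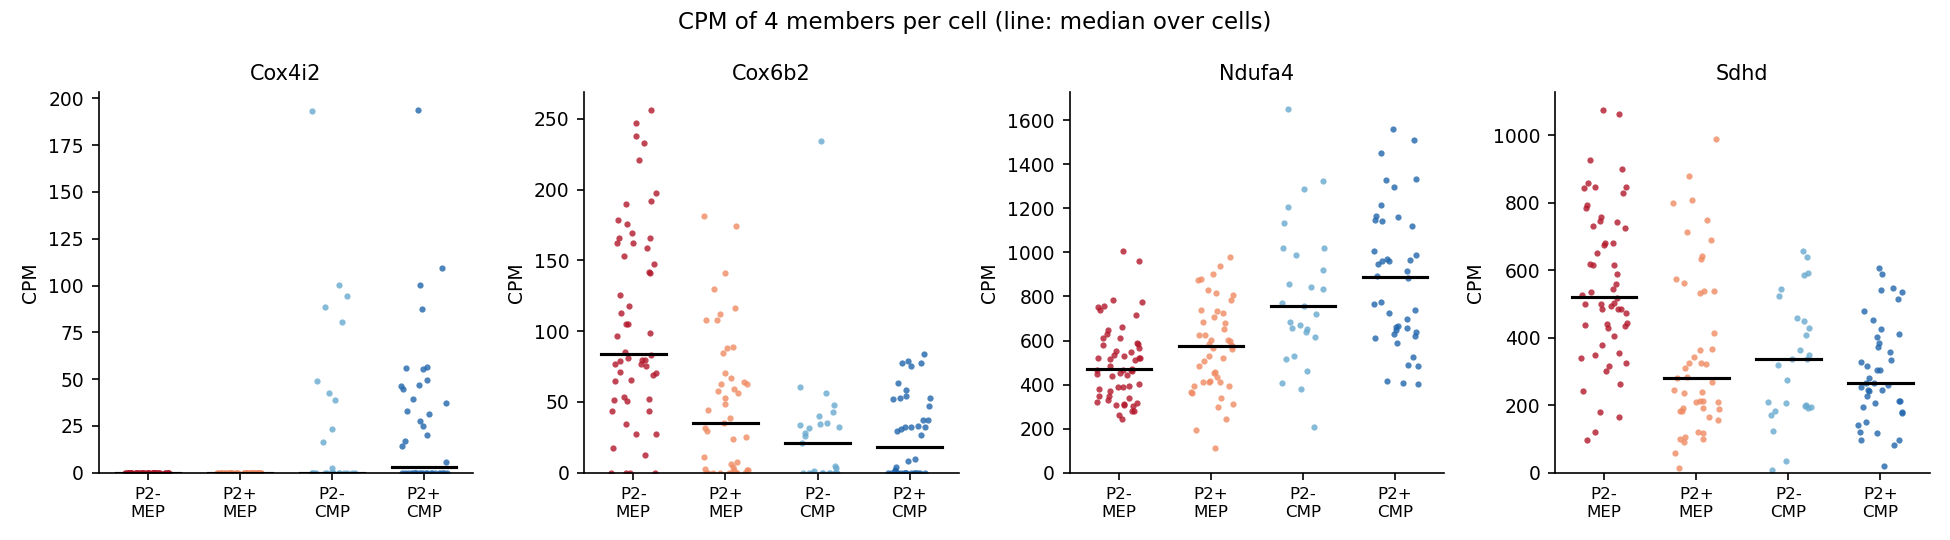
CPM per cell of Cox4i2, Cox6b2, Ndufa4 and Sdhd in the 4 populations, with 1 point per cell and the median over cells marked. Cox4i2 is at 0 in every MEP, and Ndufa4 has its highest median, 887 CPM, in P2+ CMPs.

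Cox7a1, the heart and muscle form of subunit 7A, had 7, 26, 23 and 77 reads in the 4 populations. Cox7a2, its broadly expressed counterpart, stood at 605, 570.0, 549.9 and 420.3 CPM. Cox7a2l, a related factor that joins complexes III and IV into supercomplexes, stood at 155 (P2-) and 155 (P2+) CPM in MEPs and 189 (P2-) and 190.4 (P2+) CPM in CMPs.

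The 11 assembly factors of complexes I and II that were compared were read in a median of 113 of 172 thinned cells (75 to 159), against 171.5 cells (117 to 172) for the other 76 members, and these ranges overlapped. Their median levels, not set per length, were also apart, at 52.6 and 273.3 CPM, and detection was not compared at a like level. Those of complex I (Ndufaf1 to Ndufaf8 and Atp5sl) summed to 581, 529, 503 and 475 CPM. Ndufaf5, which modifies the core subunit Ndufs7, was highest in P2+ MEPs (22.7, 38.9, 23.8 and 22.5 CPM), with a log2 ratio of 0.78 (interval 0.64 to 0.91) over P2- MEPs, and 0.59 without the cell of highest CPM in each population. Ndufaf3 (37.5, 33.9, 56.1 and 30.3 CPM) and Ndufaf6 (53.3, 55.5, 63.6 and 38.1 CPM) were lowest in P2+ CMPs. Ndufaf4, the partner of Ndufaf3, was lower in both CMP sorts (163, 155, 105 and 101 CPM), with log2 ratios of -0.64 and -0.62 that were -0.58 and -0.58, just under 1.5-fold, without mitochondrial genes and Rn18s-rs5 in the denominator. Atp5sl, now known as a complex I assembly factor, stood at 22.9, 17.7, 29.8 and 32.7 CPM, and its ratio between the P2- sorts was 0.38, but -0.10 without the cell of highest CPM in each population. Among the factors of complex II, Sdhaf2, which helps insert the flavin into Sdha, was highest in P2- MEPs (87.9, 54.8, 59.2 and 74.7 CPM).

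Counts of 7 members were uncertain (Atp5o, Cox7c, Ndufa13, Atp5g2, Ndufaf2, Ndufb6 and Sdhaf1), because at least 20% of their exons overlap another gene or at least 20% of their 70-base words occur elsewhere. Without them the summed log2 ratios were -0.15, 0.07, -0.20 and 0.01.

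The 13 mt- protein genes took 1.99%, 1.98%, 1.71% and 1.66% of reads. Almost all of these reads fell on 7 of the genes. The other 6 were hardly counted, and for 5 of them the values are not levels of the transcripts, as given below. These shares are therefore not those of all mt- protein transcripts, and their size is not to be set against the nuclear share. The MEP sorts were close to each other and above the CMP sorts, whereas for the nuclear members P2- MEPs stood above the other 3 populations. The summed log2 ratios were -0.01, -0.04, -0.22 and -0.26, and with ERCC reads as denominator those of P2+ over P2- CMPs and of P2+ CMPs over P2+ MEPs turned to 0.29 and 0.18. Over cells, the nuclear and mt- shares, which have the same total, had a Spearman's rho of -0.05, -0.31, -0.26 and 0.04 (n = 56, 47, 27 and 42). The complex I and complex V shares had a rho of 0.48, 0.23, 0.74 and 0.56.

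Of the 13, 7 had at least 20 CPM, and they were not alike. mt-Co1, the catalytic subunit of complex IV, stood at 5083, 4635, 4705 and 5248 CPM and mt-Cytb, of complex III, at 5036, 4835, 4249.5 and 4394 CPM. mt-Nd2, a membrane subunit of complex I, stood at 932 (P2-) and 1165 (P2+) CPM in MEPs and 737 (P2-) and 469 (P2+) CPM in CMPs. Its log2 ratios were -1.31 (interval -1.34 to -1.29) between the P2+ sorts and -0.65 (interval -0.69 to -0.62) between P2+ and P2- CMPs. Its lowest, median and highest single cells were 457, 1155 and 2541 CPM for MEPs and 191, 436 and 1123 CPM for CMPs of the P2+ sorts, which overlapped. mt-Nd6, the one protein gene on the light strand, stood at 297.9, 386, 289.997 and 186 CPM, with ratios of -1.05 and -0.64 in the same comparisons. Reads were counted without strand, so RNA of the opposite strand over mt-Nd6 cannot be told apart from it. mt-Nd1, another membrane subunit of complex I, stood at 5058, 5045, 3967 and 3588 CPM, with smaller ratios of -0.49 and -0.14. mt-Nd4 had -0.76 and -0.40, whereas mt-Nd5 had -0.13 and 0.04. Between the P2+ sorts, the nuclear subunits of complex I had a summed ratio of -0.02.

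**Figure D5:**
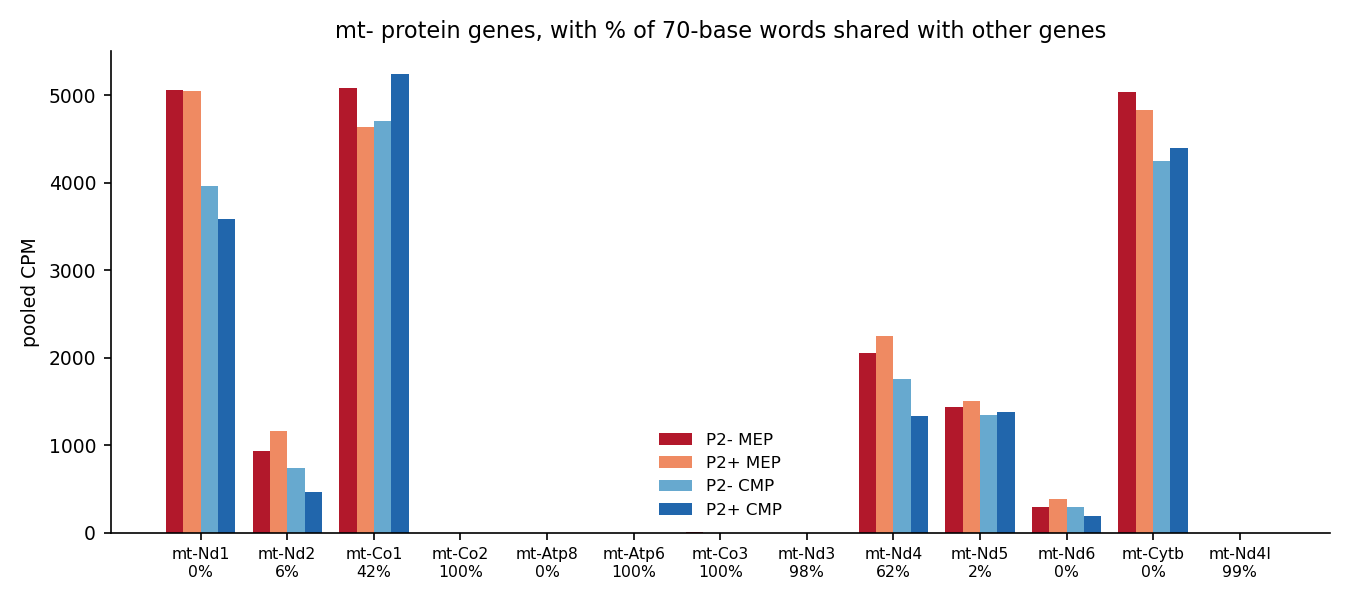
Pooled CPM of the mt- protein genes in the 4 populations, without replicates. mt-Nd1, mt-Nd2, mt-Nd4 and mt-Nd6 are lowest in P2+ CMPs, mt-Nd2 at 469 CPM.

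The other 6 mt- genes together stood at 6.73, 6.65, 5.24 and 4.46 CPM. In 5 of them (mt-Co2, mt-Atp6, mt-Co3, mt-Nd3 and mt-Nd4l), 97.8% to 99.9% of 70-base words also occur in other annotated transcripts, so these values are not levels of the transcripts. In mt-Atp8 none did, and 21.1% of its exon overlaps mt-Atp6. The share was 61.7% for mt-Nd4 and 42.1% for mt-Co1, but 6.19% for mt-Nd2 and 0 for mt-Nd6.

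Other mitochondrial genes were compared as lists, beside 15.1%, 7.82%, 22% and 15.4% of all genes higher and 7.43%, 11.5%, 14.9% and 16.5% lower past 1.5-fold in the 4 comparisons. Cyc1, the cytochrome c1 of complex III that the naming rule leaves out, stood at 635, 449, 398 and 457 CPM, and Cycs, cytochrome c, at 266.4, 235.7, 241.2 and 201 CPM. Atpif1, the inhibitor of ATP synthase, which also has a known role in heme synthesis, was highest in P2- MEPs (573, 438, 305.4 and 298.9 CPM). Of 38 further assembly and carrier genes, these among them, 29 were compared, with median ratios of -0.18, -0.03, -0.25 and -0.20, and 0, 0, 3 and 2 were higher and 3, 2, 9 and 2 lower past 1.5-fold, the latter 10.3%, 6.90%, 31.03% and 6.90% of them. Of 78 mitochondrial ribosomal protein genes, 76 were compared, with summed levels of 12266, 10108, 9033 and 8609 CPM and medians of -0.24, -0.06, -0.36 and -0.16. Past 1.5-fold, 0, 0, 1 and 1 of these were higher and 9, 1, 20 and 11 lower, the latter 11.8%, 1.32%, 26.3% and 14.47% of the list, which was above the share of all genes in P2+ over P2- MEPs and between the P2- sorts, and below it in P2+ over P2- CMPs and between the P2+ sorts. The 13 genes of the TCA cycle had medians of -0.07, -0.01, 0.05 and 0.04, where the summed ratio between the P2- sorts had the other sign (-0.12), and 0, 1, 0 and 0 were higher and 0, 0, 3 and 0 lower past 1.5-fold, where 3 are 23.1% of the list. Of 13 regulators of mitochondrial genes, 8 were compared, with medians of -0.16, -0.27, -0.36 and -0.32, and 0, 0, 0 and 0 were higher and 0, 2, 2 and 3 lower, the latter 0%, 25%, 25% and 37.5% of the 8. Among them, Nrf1 stood at 80.6, 59.0, 53.996 and 68.7 CPM, Gabpa at 40.7, 53.2, 24.7 and 30.1 CPM and Tfam, which packages mitochondrial DNA, at 133, 93.0, 117 and 98.5 CPM.

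The marker lists of the labelled types also differed between the populations. Of the erythroid genes, 8 were compared, of which 6, 6, 7 and 6 were lower past 1.5-fold in the 4 comparisons, beside 7.43%, 11.5%, 14.9% and 16.5% of all genes, and 0, 0, 1 and 1 were higher. The one that was higher was Hbb-bt, with log2 ratios of CMPs over MEPs of 4.61 for the P2- and 3.62 for the P2+ sorts. The megakaryocytic list (7 genes) summed to 49.2, 489, 490.4 and 599.8 CPM and the granulocyte and monocyte list (8 genes) to 16.3, 66.6, 404 and 653 CPM. Within populations, the rho of the nuclear OXPHOS share with the erythroid share over cells was 0.12, 0.05, -0.17 and -0.09. The part of lineage make-up in the OXPHOS differences was not tested.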

How the data were processed

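Single cells of E14.5 fetal liver were sequenced as full-length cDNA (a variant of Smart-Seq2) to which ERCC RNA had been added. The authors trimmed reads with Trimmomatic (0.36), aligned them with STAR (2.4.2a) to a joint GRCm38 and ERCC reference, and used HTSeq (0.6.1p1) without strand on exons of GENCODE M12. Overlapping and antisense genes can therefore not be told apart. The deposited values are raw counts per gene and cell, and the authors also deposited the unmapped reads as a percent. The 5 tally lines that name no gene stayed out of totals, and of uniquely mapped reads 25.6% were ambiguous and 7.40% fell on no gene.

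Following the study, cells under 250000 reads, over 25% unmapped or over 15% ERCC reads were dropped, which left 172 of 175. Doublets were not called. Populations come from the labels, and counts were summed over cells with Python (3.11.15), pandas (2.3.3), numpy (2.4.6) and scipy (1.17.1). Genes of a mean of at least 20 CPM were compared, and ratios past 1.5-fold counted. Intervals are exact Poisson for reads, exact conditional binomial for ratios, and Clopper-Pearson for shares of cells. The calculation of ratios was tried on simulated Poisson counts only. Those counts held no spread between cells and no PCR copies, so the trial does not show how wide the intervals should be here. Where a population had no reads, 3 reads were used as its floor. Levels of different genes were compared per kb of the union of exons in GENCODE M21, later than the M12 of the counts, and long rare transcripts lower such levels. Words of 70 bases were searched in annotated transcripts only.

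Genes were named by rule: the 5 highest and 5 lowest ratios in each comparison, the 10 highest levels per kb, isoform sets, catalytic subunits, mt- genes and pathway and marker lists. The rule did not require every gene that meets it to be named. Ndufaf7, past 1.5-fold but outside this rule, was named with its value known. The members and lists were chosen with earlier results of these data known. Alternatives were equal weight per cell, DESeq2 (1.42.0) size factors, ERCC reads or reads without mitochondrial genes and Rn18s-rs5 as denominator, all deposited cells, leaving out single cells, other thresholds and thinning to 50000 or 200000 reads or none. Leaving out the highest cell of each gene, or the uncertain members, was chosen after seeing the data.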

Additional observations from a re-analysis of the deposited data

How the results depend on the processing

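No paired analysis was possible because each population was 1 pool and the numbers of the cells pair nothing. Values are in the order of comparisons used above. For the nuclear members, the summed log2 ratios were -0.14, 0.069, -0.20 and 0.0100. They were -0.16, 0.051, -0.20 and 0.013 with equal weight for every cell, -0.11, 0.069, -0.24 and -0.063 with DESeq2 size factors, -0.76, 0.40, -0.72 and 0.44 with ERCC reads as denominator, and -0.11, 0.091, -0.15 and 0.049 without mitochondrial genes and Rn18s-rs5 in the denominator. Without the cell of highest member share they were -0.14, 0.074, -0.22 and -0.000125, and without the cell with a conflicting label -0.14, 0.060, -0.19 and 0.0100. The ratio of P2+ CMPs over P2+ MEPs thus turned its sign with DESeq2 size factors and without the cell of highest share. For the mt- genes, the summed log2 ratios of -0.0050, -0.039, -0.22 and -0.26 became 0.018, -0.060, -0.20 and -0.28 with equal weight, 0.068, -0.033, -0.26 and -0.36 with DESeq2 size factors, -0.62, 0.29, -0.74 and 0.18 with ERCC reads, 0.033, -0.017, -0.17 and -0.22 without mitochondrial genes and Rn18s-rs5, and 0.0066, -0.061, -0.19 and -0.26 without the cell of highest share. The cause of these moves was not tested, except that ERCC scaling moved all genes as given above.

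Members past 1.5-fold numbered 5, 4, 10 and 6. Of these 1, 1, 2 and 3 were higher and 4, 3, 8 and 3 lower. With ERCC reads they numbered 71, 16, 58 and 26, of which 0, 16, 0 and 26 were higher and 71, 0, 58 and 0 lower, beside 5.02%, 22.9%, 10.5% and 34.998% of all genes compared higher and 51.9%, 4.24%, 45.1% and 5.17% lower. With no filter on low counts they numbered 9, 7, 13 and 10, with 4, 3, 5 and 6 higher and 5, 4, 8 and 4 lower, beside 28.3%, 23.9%, 35.6% and 31.6% and 18.5%, 21.5%, 22.4% and 22.8% of all genes with reads. With the threshold lowered to a log2 ratio of 0.32 they numbered 16, 20, 36 and 30, with 1, 12, 5 and 14 higher and 15, 8, 31 and 16 lower, beside 26.5%, 18.6%, 32.002% and 25.4% and 19.5%, 26.01%, 28.6% and 30.7% of all genes. At 2-fold they numbered 1, 0, 1 and 0, each of them lower, beside 1.76%, 3.28%, 5.08% and 5.55% of all genes lower and 6.88%, 1.82%, 11.8% and 7.19% higher. Between the P2+ sorts they numbered 9 (4 higher and 5 lower) without the cell of highest member share, beside 16.1% and 16.1% of all genes. Members higher and lower in P2+ than in P2- MEPs numbered 16 and 71, but 25 and 62 with DESeq2 size factors, 26 and 61 without mitochondrial genes and Rn18s-rs5, and 1 and 86 with ERCC reads. A set of 39 ratios of single genes past 1.5-fold was followed through these settings. Not all of them are printed above, such as those of Sdhaf3 and Cox7a1. Of the 39, 4 fell below 1.5-fold with DESeq2 size factors, 13 with ERCC reads and 3 with equal weight. Leaving out the cell with a conflicting label took 2 below it, and the denominator without mitochondrial genes and Rn18s-rs5 took 2. Leaving out the cell of highest member share took 1, and leaving out the cell of highest CPM took 2. Without replicate pools, the precision is limited by the spread between pools, which these data do not hold.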
